A study of Mus musculus with 24 samples.

Results

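The 2 control brain regions were set against each other here: 4 whole cerebellum libraries and 4 cortex libraries from control mice, 8 of the 24 libraries of the series, chosen by their tissue and genotype labels alone. All 8 were total RNA libraries, depleted of ribosomal RNA with Ribo-Zero and prepared with a kit that keeps strand, from adult mice less than a year old that the study describes as littermate controls of its double mutants, either sex; the labels give their genotype only as Control. The 12 double mutant libraries used for 1 comparison at the end, 6 from cerebellum and 6 from cortex, came from Atm Nes-cre; Aptx-/- mice, which lack the DNA strand break repair factor aprataxin in every cell and the DNA damage kinase ATM in the cells that the Nestin promoter's Cre reaches, the neurons and glia of the brain. Of 22562 genes in the deposited tables, 13023 reached an FPKM (fragments mapped to a gene, per length of its transcript and per size of the library) of at least 1 in at least 4 of the 8 control libraries and were tested. The gene Gm10654 was left out. Whole pieces of tissue were sequenced, so a transcript that is lower in 1 region cannot be told apart as fewer cells of a type or less RNA per cell.

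The cerebellum and the cerebral cortex are built from different neurons. In the cerebellum, tiny and very numerous granule neurons, which are glutamatergic, send parallel fibers to the Purkinje cells, the GABAergic neurons that carry the output of the cerebellar cortex, while Bergmann glia ensheath the Purkinje dendrites. In the cerebral cortex, layered pyramidal neurons of several projection types are the main glutamatergic cells, and interneurons that arise from the ventral forebrain supply GABA. The 2 regions arise from different parts of the neural tube, the hindbrain and the telencephalon, and each keeps part of its set of patterning transcription factors in the adult.

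The libraries divided by region. Pearson correlations of log2(FPKM + 1) over all genes tested were 0.980 to 0.991 among the cerebellum libraries, 0.990 to 0.993 among the cortex libraries and 0.849 to 0.884 between the regions, and a first principal component holding 87.7% of the variance separated them. Summed FPKM without Gm10654 was 229936 to 236085 in cerebellum and 232311 to 239565 in cortex, and 12515 to 12691 and 12655 to 12774 genes reached 1 FPKM. Read depth could not be recovered from the values and is unknown. Gm10654, an uncharacterised locus, was at 1.01 to 1.44 FPKM in cerebellum and 2951 to 322070 FPKM in cortex, where it made up 58.1% of the sum of cortex library 4. One more library stood apart in a way that touches the results below: cortex library 3 was the highest of its group in several granule neuron and Purkinje cell transcripts. For some of those genes, not all, the fold changes are given with and without it.

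Most genes differed between the regions. With limma on log2(FPKM + 1), 8619 genes were called at an adjusted p under 0.05 (66.2% of those tested), 4879 of them higher in cerebellum (37.5%) and 3740 lower (28.7%), while 4404 did not pass the test. This fit did not pair libraries of the same number. With that number as a block 8848 genes were called, 8470 of them in both fits and with the same sign. The differences were mostly small, with a median size of 0.49 on the log2 scale among the genes called without a block. Past a log2 fold change of 1 in size, 702 genes were higher in cerebellum (5.39%) and 908 were lower (6.97%). The gene with the highest fold change, the uncharacterised Gm10134, was at 3.69, 151, 236 and 8585 FPKM in cerebellum and at 0.203, 0.0218, 0.101 and 0.1002 FPKM in cortex, a spread that leaves its fold change unsettled (7.47 ± 1.70). In 4534 genes all 4 cerebellum libraries lay above all 4 cortex libraries (34.8%), and in 3443 all lay below (26.4%). These shares are the background against which the counts of gene groups below are to be read. All fold changes below are cerebellum minus cortex on the log2(FPKM + 1) scale, which understates the change of genes at low FPKM. Errors after ± are SEs for fold changes and SDs for means (n = 4 for controls and n = 6 for double mutants).

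**Figure D1:**
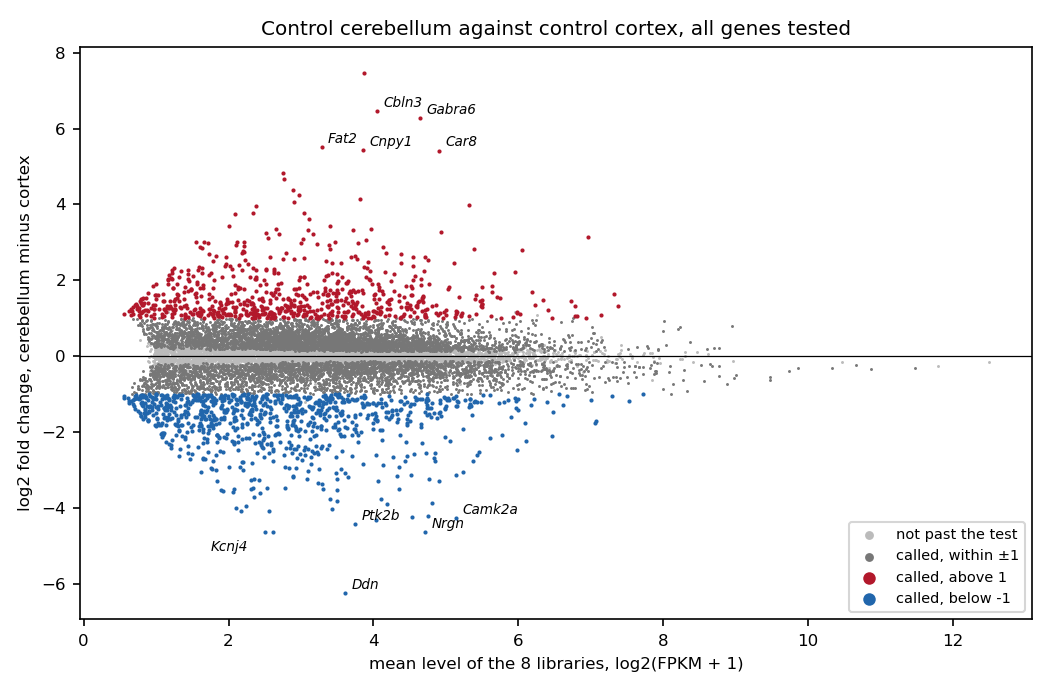
Each point is 1 of the 13023 genes tested, with the mean level of the 8 control libraries on the x axis, log2(FPKM + 1), and the log2 fold change of cerebellum minus cortex on the y axis. Red and blue points are the 702 genes higher and the 908 genes lower in cerebellum past both thresholds, the first 5 named genes in each direction are labelled, and the topmost point, unlabelled, is the uncharacterised Gm10134.

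Several of the genes furthest above their cortical level stand on the lists of granule neuron and Purkinje cell markers. Cbln3, a cerebellin that granule neurons secrete together with Cbln1 (chr14:56497757-56503093, mm9), was at 141, 179, 137 and 167 FPKM in cerebellum and at 0.208, 0.266, 3.13 and 0.540 FPKM in cortex, a log2 fold change of 6.46 ± 0.33 (limma, adjusted p 5.3e-08). Gabra6, the GABA-A receptor subunit that marks granule neurons, was at 209, 210, 223 and 229 FPKM in cerebellum and at 0.309, 0.671, 15.2 and 0.846 FPKM in cortex, a log2 fold change of 6.27 ± 0.65 that became 7.10 without cortex library 3. In both genes every cerebellum library stood far above every cortex library, cortex library 3 was the highest of its group, and the fold change of Cbln3 became 6.87 without it. Fat2, an atypical cadherin of granule neuron axons, was at 54.0, 86.6, 61.4 and 61.8 FPKM in cerebellum, against 0.142, 0.229, 1.52 and 0.218 FPKM in cortex. Cnpy1, a regulator of FGF signalling known from the midbrain and hindbrain boundary of zebrafish, was at 93.7, 97.7, 92.2 and 92.1 FPKM in cerebellum, against 0.290, 0.791, 4.78 and 0.767 FPKM in cortex. Both again had their highest cortex value in library 3, and their fold changes of 5.52 and 5.43 became 5.78 and 5.89 without it.

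Purkinje cell transcripts came next. Car8, a carbonic anhydrase related protein without enzyme activity that binds the IP3 receptor, was at 196, 189, 171 and 229.6 FPKM in cerebellum and at 3.01, 3.28, 5.39 and 3.02 FPKM in cortex, 53.4-fold higher by the means. Ppp1r17, the substrate of cyclic GMP-dependent kinase known as G-substrate, averaged 35.3 ± 4.9 FPKM in cerebellum and 0.270 ± 0.186 FPKM in cortex. Pcp2, a modulator of G protein signalling that marks Purkinje cells, averaged 33.4 ± 7.6 FPKM in cerebellum and 0.653 ± 0.365 FPKM in cortex. Cortex library 3 was the highest of its group in all 3, at 5.39 FPKM of Car8, 0.531 FPKM of Ppp1r17 and 1.14 FPKM of Pcp2, and their fold changes of 5.42, 4.84 and 4.38 became 5.58, 4.93 and 4.51 without it. Crtam, an adhesion molecule first known from T cells (4.66, and 4.92 without cortex library 3), was also among the 15 with the largest rise. So were Arhgef33, a guanine nucleotide exchange factor (4.24), and Neurod1, a basic helix-loop-helix factor of granule neurons (4.14). The others of the 15 were Cbln1, the cerebellin that links parallel fibers to Purkinje cells (4.06), Chn2, a GTPase-activating protein of Rac (3.99), Dao, the oxidase that breaks down D-serine (3.97), Il16, whose long form is neuronal (3.78), and Il20rb, a cytokine receptor chain (3.74). In all 15 the 4 cerebellum libraries lay above the 4 cortex libraries.

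**Figure D2:**
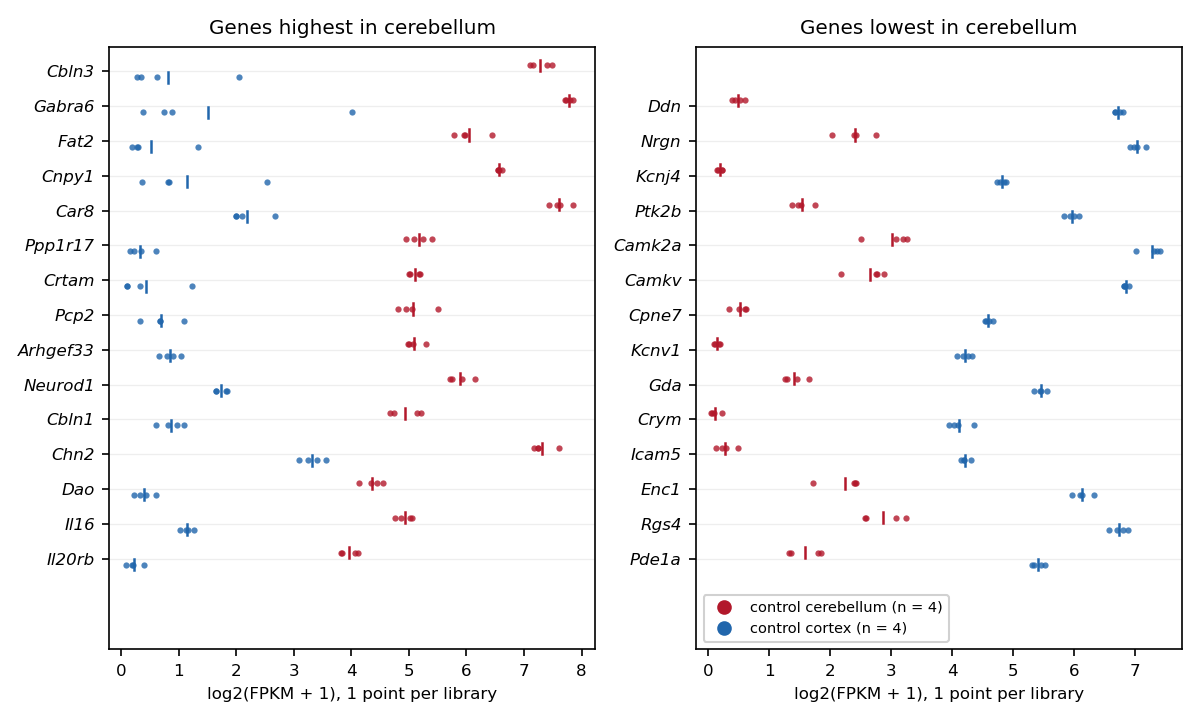
Log2(FPKM + 1) on the x axis for the 15 genes with the largest rise (left) and 14 of the 15 with the largest fall (right) in cerebellum, 1 point per library and a bar at each group's mean. The groups do not overlap in any gene, and the cortex point that lies towards the cerebellum in Gabra6, Cnpy1, Cbln3, Fat2 and Crtam is cortex library 3.

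The genes furthest below their cortical level included several that forebrain neurons use in dendrites and spines. Ddn, or dendrin, a dendritic protein whose RNA travels into dendrites, was at 0.425, 0.357, 0.515 and 0.313 FPKM in cerebellum and at 112, 107, 102 and 101 FPKM in cortex, a log2 fold change of -6.25 ± 0.06 (limma, adjusted p 1.7e-12). Nrgn, or neurogranin, which holds calmodulin in spines, was at 4.26, 5.71, 4.37 and 3.10 FPKM in cerebellum, against 145, 126, 129.8 and 121 FPKM in cortex. Kcnj4, an inwardly rectifying potassium channel, was at 0.169, 0.107, 0.114 and 0.169 FPKM in cerebellum, against 27.9, 28.5, 25.7 and 26.8 FPKM in cortex. No library of 1 region came near the other in these genes. Camk2a, the alpha chain of the calmodulin kinase of spines, averaged 7.23 ± 1.75 FPKM in cerebellum and 155 ± 17.7 FPKM in cortex. Camkv, a kinase-like protein that binds calmodulin (-4.21), Ptk2b, the calcium-sensitive tyrosine kinase Pyk2 (-4.44), Icam5, the telencephalic adhesion molecule telencephalin (-3.94), Kcnv1, a silent potassium channel subunit (-4.07), and Gda, a guanine deaminase that shapes dendrites (-4.04), stood in the same set. So did Cpne7, a copine (-4.08), Crym, a thyroid hormone binding protein (-4.01), Enc1, a kelch protein (-3.90), Rgs4, a brake on G protein signals (-3.87), and Pde1a, a calmodulin-dependent phosphodiesterase (-3.83).

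The start regions of a pair of genes from each end are printed as examples that differ in their number of CG dinucleotides. Each runs from 250 bases before to 50 bases after the RefSeq start (RefSeq, GRCm38.p6). They are written 5′ to 3′ on the gene's strand with every CG dinucleotide in capitals.
Gabra6, chr11:42321023-42321322, minus strand: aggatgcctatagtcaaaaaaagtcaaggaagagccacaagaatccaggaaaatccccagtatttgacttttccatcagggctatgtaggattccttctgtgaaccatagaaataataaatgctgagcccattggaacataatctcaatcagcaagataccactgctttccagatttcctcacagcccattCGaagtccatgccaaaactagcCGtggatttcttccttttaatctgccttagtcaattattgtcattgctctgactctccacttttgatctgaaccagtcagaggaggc
Cbln3, chr14:55884207-55884506, minus strand: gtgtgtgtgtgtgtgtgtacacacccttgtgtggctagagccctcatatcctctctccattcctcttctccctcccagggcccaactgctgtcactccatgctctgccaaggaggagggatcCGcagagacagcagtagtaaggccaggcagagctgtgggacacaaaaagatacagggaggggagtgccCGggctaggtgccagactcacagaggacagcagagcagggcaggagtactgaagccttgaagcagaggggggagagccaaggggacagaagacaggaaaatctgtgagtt
Nrgn, chr9:37552696-37552995, minus strand: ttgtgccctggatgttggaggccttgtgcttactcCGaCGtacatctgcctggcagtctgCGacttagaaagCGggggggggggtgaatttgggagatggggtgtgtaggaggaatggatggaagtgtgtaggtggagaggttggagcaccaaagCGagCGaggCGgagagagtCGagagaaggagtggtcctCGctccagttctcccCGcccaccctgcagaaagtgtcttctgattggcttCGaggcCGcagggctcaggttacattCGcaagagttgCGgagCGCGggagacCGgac
Kcnj4, chr15:79505192-79505491, minus strand: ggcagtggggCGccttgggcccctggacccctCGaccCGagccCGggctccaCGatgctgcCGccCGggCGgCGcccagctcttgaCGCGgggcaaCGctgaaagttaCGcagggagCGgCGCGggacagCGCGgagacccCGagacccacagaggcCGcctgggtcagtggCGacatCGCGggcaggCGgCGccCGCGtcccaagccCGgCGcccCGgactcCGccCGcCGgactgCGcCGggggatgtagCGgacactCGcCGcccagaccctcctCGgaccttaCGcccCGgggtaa
Gabra6 and Cbln3 held 2 CG dinucleotides each, Nrgn 17 and Kcnj4 41, and the median over the 10136 tested genes with a start region was 21, with 9.22% of them at 5 or fewer. These 4 were chosen after their letters and values were seen and describe no group: the median was 15.5 among the genes with the largest rise and 16 among those with the largest fall that have a start region. Coverage was partial, since only 76.0% of the 200 called genes with the largest rise, 70.5% of the 200 with the largest fall and 77.8% of all genes tested have a start region in the table, and a comparison of motif shares between them is void.

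Patterning factors divided by region. All 31 listed transcription factors of the cerebellum and hindbrain are in the tables, 19 were tested, and all 19 were higher in cerebellum, with a median log2 fold change of 2.19 against 0.06 over all genes tested. Here and in every list below, a gene low in 1 region could pass the FPKM filter only through the region where it was high and then had to differ, so these counts describe the tested members and are not evidence about the list. En2, the engrailed factor of the midbrain and hindbrain, was at 10.8, 15.8, 11.2 and 11.9 FPKM in cerebellum and at 0.182, 0.122, 0.374 and 0.235 FPKM in cortex. Zic1, a zinc finger factor of granule neurons, averaged 94.5 ± 10.003 FPKM in cerebellum and 8.85 ± 0.96 FPKM in cortex, and Zic5 averaged 6.20 ± 0.31 and 0.581 ± 0.048 FPKM. Zic1 overlaps Zic4 on the opposite strand, and whether the authors' counting used strand is not given in the sources used here, so the reads of the pair cannot be told apart.

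Of 32 listed telencephalic factors, 26 were tested, 22 lower and 4 higher in cerebellum, with a median of -1.93. Emx1, of dorsal telencephalic progenitors and pyramidal neurons, was at 0.0133, 0, 0.0162 and 0.0664 FPKM in cerebellum and at 3.49, 3.27, 2.99 and 3.30 FPKM in cortex. No cerebellum library came near the lowest cortex value. Mef2c, an activity-dependent factor of cortical neurons (-3.23), Lhx2, a LIM homeobox factor of the cortical primordium (-2.71), and Lmo4, a LIM-only cofactor (-2.54), were lower as well. The 4 that were higher were Neurod2 (0.93), a basic helix-loop-helix factor that granule neurons also use, Bcl6 (1.33), a transcriptional repressor, Id2 (0.57) and Bhlhe22 (0.38). With the filter set at 1 FPKM in all 8 libraries, 6 cerebellar and hindbrain factors were left as higher and 10 telencephalic factors as lower. None of the 22 listed Hox genes, which mark the hindbrain behind the cerebellum and the spinal cord, reached the filter, and their summed level was 0.042 to 0.66 FPKM in cerebellum and 0.017 to 0.22 FPKM in cortex.

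The cerebellum libraries carried the markers of the 2 main neurons of their label. All 21 granule neuron markers were tested and all 21 were higher in cerebellum, with a median of 2.83, and their summed level was 1284 to 1651 FPKM in cerebellum and 181 to 216 FPKM in cortex. Besides those above, Pax6, a paired box factor of granule precursors and neurons, averaged 10.4 ± 1.3 FPKM in cerebellum and 0.957 ± 0.071 FPKM in cortex. Of 25 Purkinje cell markers 24 were tested and 23 were higher, with a median of 2.25. Pvalb, or parvalbumin, a calcium buffer shared by Purkinje cells and many interneurons, was at 364, 364, 350.4 and 400.3 FPKM in cerebellum and at 36.5, 39.5, 44.4 and 44.5 FPKM in cortex. Calb1, or calbindin, averaged 133 ± 8.3 and 27.7 ± 2.0 FPKM. Kcng4, a modifying potassium channel subunit, and Rgs8, a regulator of G protein signalling, differed by 3.62 ± 0.08 and 2.45 ± 0.06. The other tested Purkinje marker did not pass the test and was called lower with the replicate number as a block, after rescaling to the median ratio over genes and without cerebellum library 2.

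Markers of the rarer cerebellar neurons gave mixed values. Of 6 tested markers of molecular layer and Golgi interneurons, 3 were higher, 2 lower and 1 did not pass. The higher ones were Tfap2b, an AP-2 factor of cerebellar GABAergic precursors (1.90), Kit, the receptor tyrosine kinase of molecular layer interneurons (1.74), and Slc6a5, the neuronal glycine transporter (1.26). Slc6a5 was at 1.67, 1.46, 1.59 and 1.80 FPKM in cerebellum and at 0.0200, 0.0317, 0.245 and 0.0921 FPKM in cortex. The lower ones were Nxph1, a secreted neurexin ligand, at 6.97, 6.45, 7.49 and 5.94 FPKM in cerebellum and at 13.5, 13.2, 13.7 and 13.1 FPKM in cortex, and Sorcs3, a sorting receptor (-0.32). All 5 tested markers of unipolar brush cells, excitatory interneurons of the granular layer, were higher, among them Eomes, their T-box factor, at 1.63 ± 0.29 FPKM in cerebellum and 0.0204 ± 0.0122 FPKM in cortex, and Calb2, or calretinin, at 113 ± 26.1 and 14.9 ± 1.7 FPKM. Granule neurons also use Calb2, which stands in both lists.

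**Figure D3:**
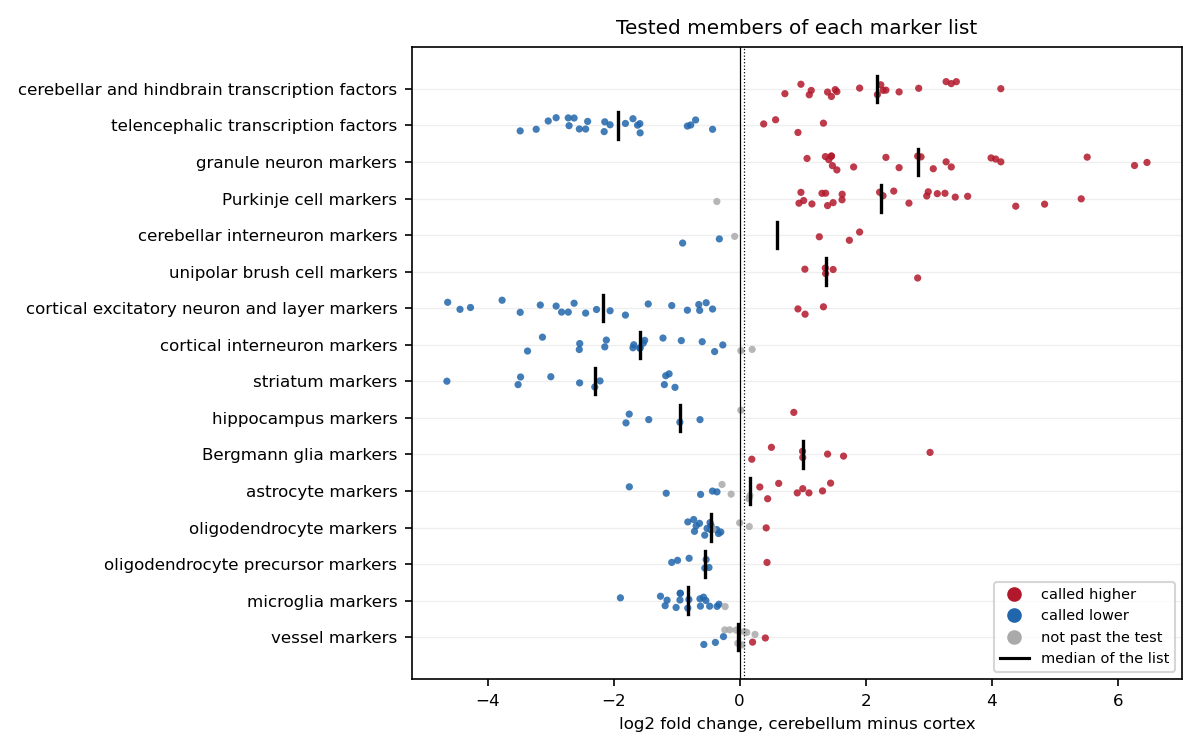
Log2 fold change of cerebellum minus cortex on the x axis for the tested members of 16 marker lists, 1 point per gene, red where called higher, blue where called lower and grey where not past the test, with a black bar at the list's median. The solid line is at 0 and the dotted line at the median of all genes tested, 0.06.

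Markers of cortical neurons ran the other way. Of 24 tested markers of cortical excitatory neurons and layers, 21 were lower and 3 higher in cerebellum, with a median of -2.16, and their summed level was 70.9 to 99.4 FPKM in cerebellum and 531 to 634 FPKM in cortex. Fezf2, which specifies subcortical projection neurons, was at 0, 0, 0.0127 and 0.0150 FPKM in cerebellum and at 6.05, 5.27, 4.63 and 5.01 FPKM in cortex. Bcl11b, or Ctip2, a factor of deep layer and striatal neurons, averaged 0.477 ± 0.171 FPKM in cerebellum and 10.1 ± 0.4 FPKM in cortex. No cerebellum library reached 1 FPKM of either. Of 19 tested markers of cortical interneurons, 17 were lower and none passed as higher, with a median of -1.58. Dlx1, a homeobox factor of forebrain GABAergic neurons, was at 0, 0.0286, 0.00951 and 0.00500 FPKM in cerebellum and at 3.76, 3.62, 3.25 and 3.20 FPKM in cortex. Tac1, the substance P precursor (-3.36), and Crhbp, a binding protein for corticotropin releasing hormone (-2.54), were lower too.

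Most glial lists had medians closer to 0. All 7 Bergmann glia markers were higher in cerebellum, with a median of 1.002. Gdf10, a growth factor of the TGF-beta family made by Bergmann glia, was at 11.5, 18.2, 9.99 and 10.4 FPKM in cerebellum and at 0.679, 0.489, 0.905 and 0.450 FPKM in cortex, and Sept4, a septin of their processes, averaged 152 ± 8.4 and 75.7 ± 5.3 FPKM. Of 17 astrocyte markers 8 were higher, 5 lower and 4 did not pass, with no common direction. The glutamate transporters of astrocytes went opposite ways. Slc1a3, or GLAST, averaged 173 ± 17.1 FPKM in cerebellum and 85.6 ± 5.3 FPKM in cortex, and Slc1a2, or GLT-1, averaged 72.4 ± 9.6 FPKM in cerebellum and 245 ± 15.4 FPKM in cortex. S100b, a calcium-binding protein (1.44), and Aldoc, the aldolase that also marks bands of Purkinje cells (0.91), were higher, and Mfge8, a secreted bridging protein of phagocytosis (-1.16), was lower.

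Myelin and microglial transcripts were lower in cerebellum. Of 17 oligodendrocyte markers 13 were lower, 1 was higher and 3 did not pass, with a median of -0.46. Cldn11, the tight junction protein of myelin, averaged 30.3 ± 2.5 FPKM in cerebellum and 50.9 ± 3.7 FPKM in cortex, and Mal, a myelin proteolipid, averaged 36.3 ± 6.0 and 64.6 ± 5.6 FPKM. Pdgfra, the growth factor receptor of oligodendrocyte precursors, averaged 4.02 ± 0.50 and 9.57 ± 0.53 FPKM. Of 18 microglia markers 17 were lower and the other did not pass, with a median of -0.81. Cx3cr1, the fractalkine receptor, was at 3.11, 2.996, 2.89 and 3.12 FPKM in cerebellum and at 7.75, 6.38, 6.77 and 7.58 FPKM in cortex, and P2ry12, the ADP receptor of resting microglia, averaged 6.16 ± 0.59 and 12.7 ± 0.4 FPKM. Vessel markers showed no common shift: 2 of 13 were higher, 3 lower and 8 did not pass.

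Markers of the striatum were measured at higher levels in the cortex libraries. All 11 striatum markers were lower in cerebellum, and their summed level was 68.6 to 82.8 FPKM in cerebellum and 231 to 267 FPKM in cortex. Adora2a, the adenosine receptor of striatal neurons, averaged 0.257 ± 0.077 FPKM in cerebellum and 9.02 ± 0.28 FPKM in cortex, and Drd1a, a dopamine receptor of striatum and of some cortical neurons, averaged 0.256 ± 0.09997 and 13.3 ± 1.1 FPKM. Hcrt, the hypothalamic peptide orexin, was at 0, 0, 0.0297 and 0.0468 FPKM in cerebellum and at 3.59, 5.06, 6.03 and 2.72 FPKM in cortex. Hcrt was chosen after its values were seen. How far tissue other than neocortex entered the values of forebrain genes was not tested.

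Choroid plexus, blood and pituitary transcripts varied widely between libraries of 1 region. Ttr, or transthyretin, made by the choroid plexus, was at 481, 209, 14.0 and 752 FPKM in cerebellum and at 316, 269, 284 and 270.2 FPKM in cortex, and did not pass the test (limma, adjusted p 0.59). Otx2, which choroid plexus and some granule neurons use, was higher (1.04), and Kl, or Klotho, lower (-1.10). Hbb-b1, a beta globin, was at 147, 193, 253 and 663 FPKM in cerebellum and at 57.6, 77.2, 118 and 219 FPKM in cortex, and Hba-a2, an alpha globin, averaged 150.4 ± 105 and 62.2 ± 38.9 FPKM, with library 4 the highest of each region. In each of the 4 same-numbered pairs both globins were higher in cerebellum. The difference of Hbb-b1 (1.33, limma, adjusted p 0.032) was called with the replicate number as a block too, and was not past the test without cerebellum library 3 or 4 or cortex library 1 or 2 (0.89 to 1.35, adjusted p 0.055 to 0.092) or with no filter (adjusted p 0.066). That of Hba-a2 (1.22, limma, adjusted p 0.042) was likewise called with the block, and not without cerebellum library 2, 3 or 4 or cortex library 1, 2 or 3 (0.80 to 1.27, adjusted p 0.0601 to 0.12), after rescaling to the median ratio (0.059) or with no filter (0.083). Of 5 tested blood markers 2 were higher, and 4 with the block. Near-identical globin copies share reads, so the split among them is uncertain. Prl, or prolactin, a pituitary hormone, was at 5.82, 53.4, 6.91 and 116 FPKM in cerebellum and at 5.76, 62.7, 3.13 and 70.6 FPKM in cortex, and Gh, growth hormone, averaged 6.38 ± 8.29 and 5.17 ± 5.84 FPKM. Libraries 2 and 4 of both regions were the high ones in Prl, and the regions overlapped. Pomc, the precursor of corticotropin, which averaged 8.40 ± 8.15 and 2.03 ± 1.56 FPKM, was past the threshold only with the replicate number as a block (limma, adjusted p 0.088 without and 0.00077 with it).

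Subunit transcripts of the GABA-A receptor, the pentameric chloride channel that GABA opens, differed in level between the regions. The receptors themselves were not measured. Of 15 subunit genes 13 were tested, 4 higher, 8 lower and 1 not past the test, with a median of -0.90. Gabra6 and Gabrd, the subunits of the extrasynaptic receptors of granule neurons, were higher, Gabrd at 37.1, 51.1, 38.2 and 39.7 FPKM in cerebellum and at 15.9, 13.7, 14.8 and 14.99 FPKM in cortex. Gabrb2, part of the commonest synaptic receptor, was higher by 0.24 ± 0.05. The alpha subunits of forebrain receptors were lower: Gabra5, of extrasynaptic receptors in hippocampus and deep cortex (-2.95), Gabra4 (-2.20), Gabra3 (-2.10) and Gabra2 (-1.27). So were Gabrg3 (-1.996) and Gabrb1 (-1.23).

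These subunit genes lie in clusters. On mouse chromosome 11 (mm9), Gabra6 (chr11:42119939-42134574) and Gabrb2 (chr11:42233259-42446092) stand near each other, with log2 fold changes of 6.27 and 0.24. The 2 neighbors did not share a value. On chromosome 7, Gabrg3 and Gabra5 were both lower, as were Gabra2, Gabra4 and Gabrb1 on chromosome 5.

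**Figure D4:**
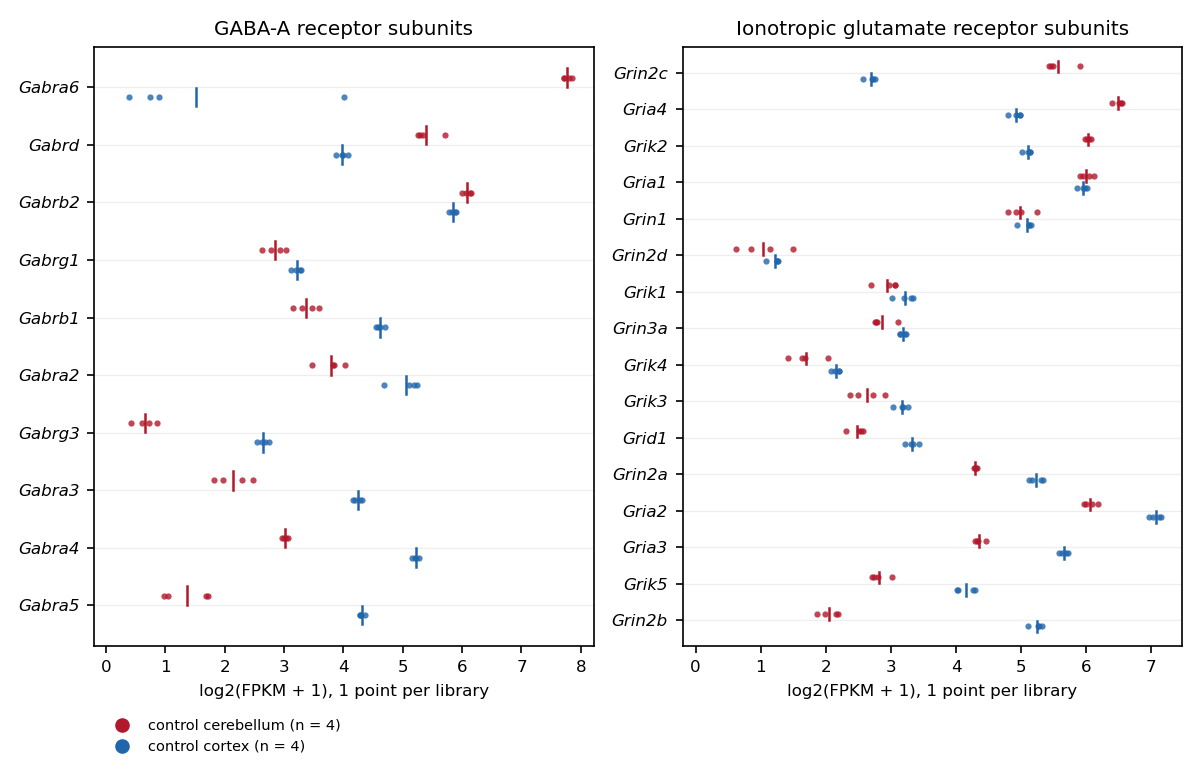
Log2(FPKM + 1) on the x axis for 10 of the 13 tested subunits of the GABA-A receptor (left) and 16 of the 17 tested subunits of the ionotropic glutamate receptors (right), ordered by log2 fold change, 1 point per library and a bar at each group's mean. Gabra6 and Grin2c stand at the top and Gabra5 and Grin2b at the bottom, and the groups overlap in Gria1, Grin1, Grin2d and Grik1.

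Glutamate receptor subunits also went both ways. Of 17 tested ionotropic subunits 4 were higher, 10 lower and 3 did not pass, with a median of -0.32. The NMDA receptor partners were opposed: Grin2c, the subunit of mature granule neurons, was at 42.1, 59.0, 42.9 and 44.0 FPKM in cerebellum and at 5.63, 5.73, 5.53 and 4.97 FPKM in cortex, and Grin2b, the forebrain subunit, was at 3.46, 2.96, 3.57 and 2.65 FPKM in cerebellum and at 37.7, 39.0, 37.2 and 33.3 FPKM in cortex. Grin1, the subunit that every NMDA receptor needs, averaged 31.0 ± 4.2 and 33.0 ± 2.3 FPKM and did not pass the test. Grin2a was lower (-0.93). Among AMPA receptor subunits, Gria4 was higher (1.57), Gria2, which makes the channel impermeable to calcium, and Gria3 were lower (-1.01 and -1.30), and Gria1, at 63.3 ± 4.2 FPKM in cerebellum and 61.0 ± 2.9 FPKM in cortex, did not pass. The kainate receptor subunit Grik2 was higher by 0.92 ± 0.05.

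Of 9 tested metabotropic glutamate and GABA-B receptor genes 2 were higher and 7 lower. Grm4, the presynaptic receptor of parallel fibers, was at 35.9, 59.9, 38.5 and 38.7 FPKM in cerebellum and at 3.64, 4.03, 4.99 and 4.03 FPKM in cortex. Grm5, a receptor of forebrain neurons that raises IP3, was at 7.77, 5.59, 7.80 and 5.02 FPKM in cerebellum and at 56.9, 56.3, 54.3 and 55.3 FPKM in cortex. Grm7 (-1.72), Grm3 (-1.36) and Grm2 (-1.04), which are coupled to Gi, were lower.

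Transmitter synthesis and uptake genes were closer together. Of 13 tested, 4 were higher, 6 lower and 3 did not pass. The vesicular glutamate transporters were both lower in cerebellum, Slc17a7 at 44.3, 71.5, 45.9 and 44.3 FPKM in cerebellum and at 113, 97.1, 97.6 and 93.0 FPKM in cortex, and Slc17a6 at 16.9 ± 4.9 and 22.4 ± 1.2 FPKM. Slc1a6, the glutamate transporter of Purkinje cells, was higher (2.97 ± 0.18). For GABA neurons, Gad2 was lower (-0.85), Gad1, at 87.4 ± 11.2 FPKM in cerebellum and 78.4 ± 2.3 FPKM in cortex, did not pass, and Slc32a1, the vesicular GABA transporter, passed narrowly (0.42 ± 0.17, limma, adjusted p 0.046). The call for Slc32a1 was lost without cerebellum library 3 or any 1 cortex library (limma, adjusted p 0.074 to 0.099), and also under quantile normalization (0.056), rescaling to the median ratio (0.067), no intensity trend (0.053) and no filter (0.083), and that for Slc17a6 (limma, adjusted p 0.038) without cerebellum library 2 or 4 or any 1 cortex library (0.059 to 0.093), with no filter (0.071) and with 20 libraries in 1 fit (0.17).

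Receptors for amines, acetylcholine, opioids and cannabinoids were mostly lower in cerebellum, 25 of 29 tested, with 3 higher and a median of -1.10. Chrm1, the muscarinic receptor of pyramidal neurons, was at 0.0553, 0.134, 0.127 and 0.0462 FPKM in cerebellum and at 12.8, 12.3, 11.5 and 10.2 FPKM in cortex. Cnr1, the cannabinoid receptor, which parallel fibers and basket cells carry, averaged 86.2 ± 6.4 FPKM in cerebellum and 41.8 ± 2.0 FPKM in cortex. Of 18 tested neuropeptide genes 15 were lower, 1 was higher and 2 did not pass. Sst, or somatostatin, was at 11.95, 12.7, 15.5 and 6.01 FPKM in cerebellum and at 108, 98.4, 113 and 95.7 FPKM in cortex, and Cck, cholecystokinin, averaged 17.6 ± 4.0 and 105 ± 8.4 FPKM. Vip and Npy, of 2 other interneuron classes, averaged 2.89 ± 1.02 and 11.1 ± 3.5 FPKM in cerebellum, against 15.3 ± 1.3 and 33.2 ± 4.0 FPKM in cortex, and Grp, the gastrin releasing peptide, differed by -2.11. Nts, neurotensin, was the peptide that was higher, at 5.78, 2.89, 7.12 and 2.97 FPKM in cerebellum and at 2.49, 2.32, 2.06 and 2.33 FPKM in cortex.

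Ion channel genes divided within families. Of 31 tested voltage-gated potassium channel genes 7 were higher, 20 lower and 4 did not pass, with a median of -1.11. The Kv3 channels, which let neurons fire fast, were divided: Kcnc1 was higher by 1.25 ± 0.10, and Kcnc2 averaged 3.74 ± 1.05 and 22.5 ± 1.1 FPKM. Kcnd2, the A-type channel of granule neurons, was higher (1.46), and Kcnh3 (-3.71), Kcnf1 (-3.54) and Kcnq5 (-3.25), a channel of the M current, were lower. Among 17 tested voltage-gated calcium and sodium channel genes, 5 were higher and 8 lower. Cacna1a, the P/Q-type calcium channel of Purkinje cells, averaged 34.5 ± 5.1 FPKM in cerebellum and 13.3 ± 1.4 FPKM in cortex, and Cacna1e, the R-type channel, averaged 15.4 ± 0.5 and 30.3 ± 2.6 FPKM. The T-type channels went apart, Cacna1g at 1.02 ± 0.17 and Cacna1h at -2.16 ± 0.09, and the sodium channel subunit Scn3b was lower (-2.53).

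Calcium handling genes balanced, with 14 of 30 higher, 13 lower and 3 not past the test. Itpr1, the IP3 receptor of the Purkinje cell reticulum, was at 232, 348, 278 and 278 FPKM in cerebellum and at 92.7, 91.9, 92.1 and 84.8 FPKM in cortex. Atp2a3, a pump that refills the store, was at 12.5, 26.0, 15.95 and 15.2 FPKM in cerebellum and at 0.967, 0.670, 0.957 and 0.856 FPKM in cortex, while its widespread relative Atp2a2, at 118 ± 17.96 FPKM in cerebellum and 126 ± 8.2 FPKM in cortex, did not pass. Ryr2, the calcium release channel that calcium itself opens, differed by 0.21 ± 0.06. The neuronal calcium sensors Hpca, or hippocalcin (-2.46), and Hpcal4 (-3.28), and the plasma membrane pump Atp2b1 (-1.76), were lower.

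Synaptic organizers and signalling kinases held pairs of relatives that went apart. Of 26 tested organizers 6 were higher and 14 lower. Cbln1 was at 24.4, 35.9, 25.7 and 34.3 FPKM in cerebellum and at 1.15, 0.530, 0.965 and 0.753 FPKM in cortex, and its relative Cbln4 was at 0.331, 0.185, 0.427 and 0.222 FPKM in cerebellum and at 2.98, 2.69, 3.11 and 2.98 FPKM in cortex. Lrrtm3, a postsynaptic adhesion protein, was higher (0.93), and C1ql3, a secreted C1q-like protein (-2.46), and Lrrtm1 (-1.88) were lower. Of 27 tested kinases, phospholipases and partners 9 were higher and 14 lower. Homer3, a postsynaptic scaffold of Purkinje cells that binds Itpr1, was at 29.7, 42.8, 29.6 and 34.1 FPKM in cerebellum and at 2.17, 1.94, 2.53 and 2.32 FPKM in cortex, and Homer1 averaged 15.1 ± 0.6 and 45.4 ± 6.4 FPKM. Plcb4, the phospholipase C of most Purkinje cells, averaged 74.4 ± 2.6 and 23.4 ± 1.4 FPKM, and Plcb1, its forebrain relative, averaged 14.68 ± 1.1 and 45.0 ± 2.9 FPKM. Camk4, a nuclear calmodulin kinase of granule neurons, was higher (1.07), and Prkca was lower (-1.44).

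A ratio of 2 genes within a library depends little on the scaling between libraries, except where a gene is near or below the 1 added to each FPKM. Being per length, FPKM allows 2 genes to be set against each other. For 20 such pairs, written down with earlier results of these data known, the log2 ratio of (FPKM + 1) was compared by an exact two-sided permutation test over the 70 ways of dividing 8 libraries, with p-values adjusted over the 20 pairs. Swapping regions only within libraries of the same number leaves 16 ways and a smallest p of 0.125, so that no pair could pass with the replicate number as a block. In 18 pairs all 4 same-numbered differences had 1 direction. In 18 pairs the regions did not overlap, each with the smallest p that 70 divisions allow (exact p 0.0286, adjusted 0.0317), and in 13 of them the ratio had the opposite sign in every library of the other region. Since the pairs were chosen with results of these data known, such p-values describe the pairs and are no independent evidence. Gabra6 exceeded Gabra5 by 6.42 ± 0.42 in cerebellum and stood at -2.80 ± 1.70 in cortex, where cortex library 3 was at -0.27, a difference of 9.22 that became 10.06 without it. Neurod1 against its forebrain relative Neurod6 was at 5.09 ± 0.40 in cerebellum and -2.54 ± 0.14 in cortex, and Grin2c against Grin2b at 3.52 ± 0.31 and -2.55 ± 0.02. Other pairs that turned sign included Cbln1 and Cbln4 (4.57 and -1.10), En2 and Emx1 (3.70 and -1.80), Camk4 and Camk2a (3.14 and -2.20), Homer3 and Homer1 (1.11 and -3.83), and Slc1a3 and Slc1a2 (1.25 and -1.50), each cerebellum first.

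Some ratios shifted without turning. Itpr1 exceeded Ryr2 by 2.95 ± 0.17 in cerebellum and by 1.54 ± 0.06 in cortex, and Rora, the nuclear receptor that Purkinje cells need, exceeded Rorb, a marker of cortical layer neurons, by 3.72 ± 0.22 and 0.93 ± 0.08. Atp2a3 stayed below Atp2a2 in both regions, at -2.73 ± 0.23 and -6.09 ± 0.13. The regions overlapped in 2 pairs, one of them Slc17a6 against Slc17a7, at -1.56 ± 0.63 in cerebellum and -2.11 ± 0.16 in cortex (exact p 0.229).

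**Figure D5:**
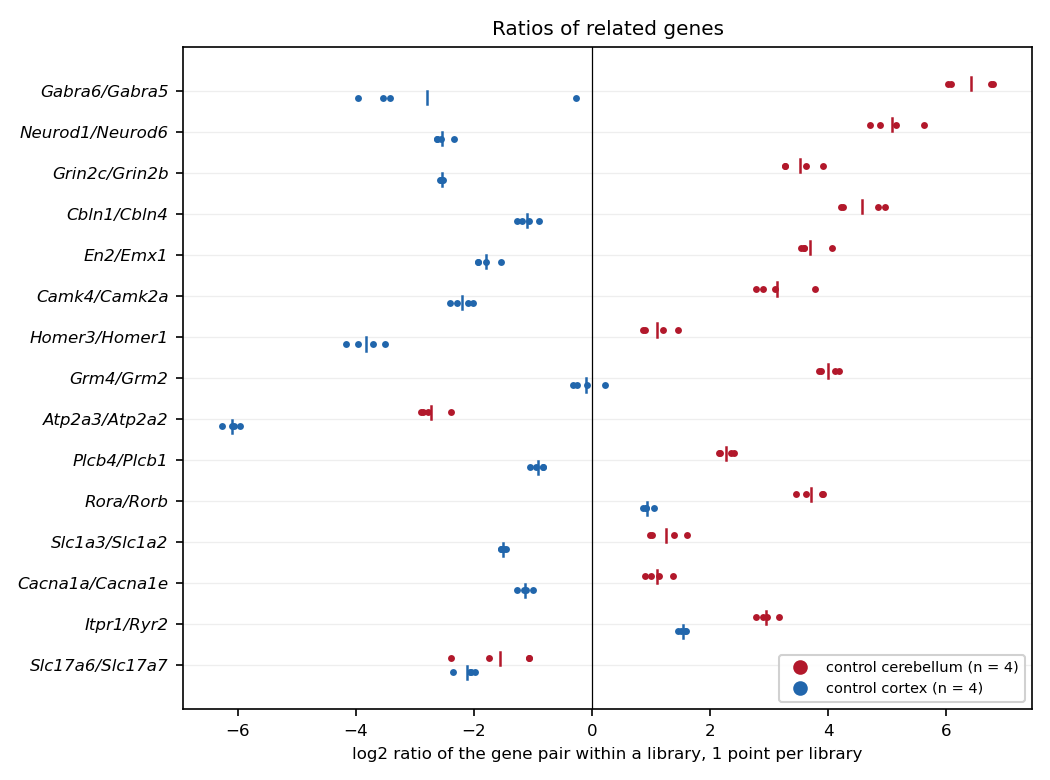
Log2 ratio of the first gene over the second, each as FPKM + 1, on the x axis for 15 of the 20 gene pairs, 1 point per library and a bar at each group's mean, with a line at 0. The regions lie apart in all pairs shown but Slc17a6/Slc17a7 at the bottom.

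Genes that neuronal activity induces were lower in cerebellum in 10 of 15 tested cases, with 1 higher and a median of -1.25. Egr3, a zinc finger factor, was at 0.373, 0.393, 0.233 and 0.0648 FPKM in cerebellum and at 8.49, 8.54, 7.12 and 5.05 FPKM in cortex, and Arc, the spine cytoskeletal protein, at 5.79, 6.97, 5.22 and 5.45 FPKM in cerebellum and at 30.8, 30.3, 32.2 and 15.2 FPKM in cortex. Nptx2, a secreted pentraxin, was lower (-1.89), and Ier2 was the one that was higher (1.08). Fos was at 12.3, 21.7, 10.6 and 2.71 FPKM in cerebellum and at 9.52, 11.2, 9.25 and 2.99 FPKM in cortex. Library 4 was the lowest of both regions in Fos, whose regional difference did not pass the test.

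Clock genes differed little. Of 14, 2 were higher, 2 lower and 10 did not pass, and with the replicate number as a block 4 were higher. Npas2, a forebrain relative of Clock, averaged 0.487 ± 0.129 FPKM in cerebellum and 6.19 ± 0.66 FPKM in cortex, and Cry1, a repressor, was higher (0.93). Per2 was at 4.22, 5.99, 7.64 and 4.45 FPKM in cerebellum and at 4.56, 6.36, 7.42 and 4.01 FPKM in cortex, so libraries of the same number were close and the regions were not apart. The hedgehog pathway drives the division of granule precursors in the young cerebellum, and of its 10 tested genes 7 were higher and 2 lower in the adult. Boc, a co-receptor of Sonic hedgehog, averaged 22.3 ± 3.0 and 4.05 ± 0.08 FPKM, and the co-receptor Cdon (1.23) and the receptor Ptch1 (0.89), itself a hedgehog target, were higher.

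The genes that the series' mutants lack were measured in both control regions, and at low levels. Atm was at 6.88, 6.75, 7.05 and 7.13 FPKM in cerebellum and at 5.28, 5.61, 5.18 and 5.03 FPKM in cortex, and Aptx at 3.59, 3.17, 3.21 and 3.11 FPKM in cerebellum and at 4.51, 4.44, 4.53 and 4.26 FPKM in cortex. The 2 differed in opposite directions, by 0.34 ± 0.06 and -0.35 ± 0.06, with no overlap of regions. Of 27 tested genes of DNA strand break repair 11 were higher, 5 lower and 11 did not pass, with a median of 0.12, shares of 40.7% and 18.5% beside the 37.5% and 28.7% of all genes tested. Tdp2, which cleans break ends (0.73), and Xrcc6, a Ku subunit (0.63), were higher, and Apex1, an abasic site nuclease, was lower (-0.46).

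Of 16 genes that the study names, chosen by it on the mutants of the same series and so no independent evidence, 11 were higher in control cerebellum, 3 lower and 2 not past the test, with a median of 0.84. Itpr1, Car8, Chn2, Slc1a3 and Camk4 are given above, and Ttll5, a tubulin glutamylase, averaged 27.7 ± 1.7 and 11.1 ± 0.3 FPKM. Cntn4, a neural adhesion molecule, was lower (-0.94), as was Bean1 (-0.41). Lynx1, a brake on nicotinic receptors, was at 60.1, 67.3, 57.2 and 63.1 FPKM in cerebellum and at 70.4, 65.4, 67.0 and 71.4 FPKM in cortex, with a call that was lost with the replicate number as a block (limma, adjusted p 0.046 without and 0.058 with it). Afap1l1, at 4.39 ± 0.29 FPKM in cerebellum and 4.70 ± 0.31 FPKM in cortex, and Stxbp2, at 3.06 ± 1.21 and 3.71 ± 1.68 FPKM, did not pass. Of 42 tested genes of hereditary ataxia 24 were higher, 9 lower and 9 did not pass. Syne1, a giant nuclear envelope protein, averaged 134 ± 5.5 and 47.3 ± 3.2 FPKM, while Pdyn, the dynorphin precursor (-2.54), Ppp2r2b, a phosphatase subunit (-1.17), Atxn1 (-0.76) and Sptbn1 (listed as Spnb2, -0.73) were lower.

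Genes used as references were not all level. Of 51 ribosomal protein genes 6 were higher, 13 lower and 32 did not pass, with a median of -0.02, but the balance rests on the scaling: quantile normalization gave 11 higher and 6 lower, rescaling to the median ratio over genes gave 2 and 19, and the replicate number as a block gave 10 and 15. Rps2 (-0.70) and Rpl18 (0.39) were called, and Rpl34, which has many processed copies that can share reads, was at 117, 54.8, 125 and 74.2 FPKM in cerebellum and at 32.5, 21.4, 32.5 and 22.4 FPKM in cortex. Of 18 housekeeping genes 4 were higher and 9 lower, among them Tbp (0.58) and Ywhaz (-1.17). Gapdh averaged 236 ± 39.4 FPKM in cerebellum and 264 ± 21.1 FPKM in cortex and did not pass the test.

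The genes past both thresholds spanned more of the genome than genes at large. On mm9, the median span from start to end was 26.5 kb among the genes higher by over 1 (687 of 702 with a position), 43.8 kb among those lower by over 1 (894 of 908) and 23.8 kb among all genes tested (12846), and 21.5%, 33.4% and 15.1% spanned over 100 kb, given as a description with no test.

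The same contrast in double mutants was the closest one in the series. Of the 1610 genes past both thresholds in controls, 1594 had the same sign in double mutants. The interaction, cerebellum minus cortex in double mutants minus that in controls over 20 libraries in limma, was called for 3594 of 13023 genes (27.6%), 2003 higher and 1591 lower, and for 687 of those 1610. Every control library carries another library code than every double mutant library, and all 8 control columns were written with over 10 significant digits in at least 98.5% of their values, which 5 of 6 double mutant columns in each region were not (at most 0.0448%), so genotype and the making of the columns cannot be told apart.

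Several forebrain transcripts were further apart in double mutants than in controls. Nrgn averaged 1.74 ± 2.68 FPKM in cerebellum and 222 ± 36.3 FPKM in cortex of double mutants. In those of controls it averaged 4.36 ± 1.07 and 130.2 ± 10.2 FPKM, an interaction of -2.06 (SE 0.46). The SD of Nrgn in double mutant cerebellum exceeded its mean, so those libraries differed widely among themselves. Vip (-2.22), Sst (-2.23), Npy (-1.82) and Camkv (-1.68) had interactions of the same sign. Among genes higher in cerebellum, Zic1 (1.63), Cnpy1 (1.44) and Calb2 (1.27) were further apart in double mutants. The sign turned for Itpr1, which averaged 40.3 ± 5.4 FPKM in cerebellum and 100.1 ± 4.4 FPKM in cortex of double mutants, and 284 ± 47.9 and 90.4 ± 3.7 FPKM in those of controls, an interaction of -2.93 (limma, adjusted p 4.6e-12). Hcrt, found in the cortex libraries of controls, averaged 0.058 FPKM in the cortex of double mutants. Car8, Pvalb and Calb1 did not pass the test of the interaction. Car8 averaged 152 ± 12.1 FPKM in cerebellum and 3.62 ± 0.63 FPKM in cortex of double mutants. In those of controls it averaged 196 ± 24.5 and 3.67 ± 1.15 FPKM, an interaction of -0.36 (limma, adjusted p 0.11). The term compares regional differences and is not a test between cerebella. Between cerebella the paper reports CA8 expression as markedly decreased in double mutants. Its main text does not name the measure used for CA8, which may differ from the total RNA values here.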

How the data were processed

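Total RNA of whole cerebellum and cortex was sequenced, and the deposited values are FPKM per gene that the authors computed from reads aligned to mm9 (the submitters' processing notes name BWA 0.5.10 and HTSeq), normalized for length and library size before deposit. FPKM are not counts, and a search for whole-read steps failed (at most 15.7% of genes under 0.2 FPKM shared the commonest ratio between 2 libraries of 1 region), so depth is unknown and no counting interval is given. The 8 control columns were joined by gene symbol, the other groups serving only the last comparison, and 4 columns (Aptx-/- and Atm Nes-cre cerebellum) were not used. Gm10654, at 322070 FPKM in cortex library 4, was left out.

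The 13023 genes that reached 1 FPKM in 4 or more of the 8 libraries were fitted on log2(FPKM + 1) with limma 3.58.1 in R 4.3.3, using its intensity trend and two-sided tests. P-values were adjusted by the Benjamini-Hochberg method across all of them, with 0.05 as the threshold for a call, and calls were counted again past an absolute log2 fold change of 1. The double mutant comparison was the interaction term of a fit over 20 libraries. Pair ratios used an exact permutation test (Python 3.11.15, numpy 2.4.6, pandas 2.3.3). The steps were tested on simulated data with 200 changed genes.

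As in the study's own limma analysis, which states no block, the fit had none. That analysis compared genotypes within a tissue, so it does not bear on pairing across regions. SEs and adjusted p-values are from the fit without a block unless stated. Libraries of the same number deviated together (r of 0.167, 0.113, 0.260 and 0.305 between same-numbered libraries of the 2 regions over genes, -0.200 to 0.058 for the others), so the numbers pair the samples, and the fit with the replicate number as a block is given where it changes a call. The pairing rests on this check and on the numbers in the labels, which do not say whether a pair is 1 animal. The labels also do not say that libraries of 1 group come from separate animals, though the paper states that each of its datasets drew on several animals. P-values measure only the spread between these libraries, which may be in part technical.

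The 43 gene lists hold 705 genes, of which 703 are in the files (6 by an older symbol) and 591 were tested. Some genes that the rule below names are not reported here. The comparison, the lists and the pairs were chosen with earlier results of these data known. Genes were named by rule: the 15 highest and 15 lowest fold changes past both thresholds without overlap of the regions, passing over uncharacterised symbols, up to 4 called members per list and direction by smallest p, the pair genes, Atm, Aptx and genes the study names. Other genes named are examples of roles and were chosen with their values known. A comparison of promoter motifs planned with these lists was void for lack of sequences. Positions on mm9 come from the GENCODE vM1 annotation, and promoter sequences from RefSeq on GRCm38.p6.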

Additional observations from a re-analysis of the deposited data

Results flagged for a closer look

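In 23 of 372 groups of 4 libraries (6.18%, 186 genes named in the text in 2 regions), 1 library lay far from the other 3. Chance alone gives about 1 in 20. Cortex library 3 was the high one in 6 of them, all genes higher in cerebellum, with Gabra6 at 15.2, Car8 at 5.39, Cnpy1 at 4.78, Cbln3 at 3.13, Fat2 at 1.52 and Crtam at 1.35 FPKM. Cortex library 4 was the low one in 6, with Slc1a2 at 221, Spnb2 at 146, Prkcb at 122, Itpr1 at 84.8, Cnr1 at 38.9 and Arc at 15.2 FPKM, and cortex library 1 was high in Camk4 at 37.8 FPKM. Cerebellum library 2 was the high one in Chn2 at 194, Kcnd2 at 83.8, Slc17a7 at 71.5, Grm4 at 59.9 and Grin2c at 59.0 FPKM. Cerebellum library 4 was high in Plcb4 at 78.2 and Gh at 18.7 FPKM and low in Enc1 at 2.28 and Vip at 1.36 FPKM, and cerebellum library 1 was low in Adora2a at 0.143 FPKM. What set these libraries apart was not tested. Gm10654, which no comparison uses, was at 322070 FPKM in cortex library 4.

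For 87 of the 186 named genes the regional difference in double mutants differed from that in controls by the limma interaction term, and in 75 of them the term had the sign of the control difference. Over all 13023 genes tested the term was called for 3594 (27.6%). Many named genes were chosen for large regional differences or with their values known, so these counts describe the named genes only. Genotype and the making of the columns cannot be told apart in these values, which are given as log2 differences of double mutants minus controls.

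Among genes higher in control cerebellum, the difference was larger in double mutants for some named markers and factors, with Zic1 at 1.63, Calb2 at 1.27, Fat2 at 0.80, Cbln1 at 0.60, En2 at 0.59, Neurod1 at 0.58, Tfap2b at 0.55, Zic5 at 0.48, Eomes at 0.39, Pax6 at 0.36 and Otx2 at 0.99. Of the 21 granule neuron markers, a list chosen with earlier results known, 9 passed the test of the term in either direction, beside 27.6% of all genes tested. The same held for Pcp2 (0.79), Rora (0.47), Plcb4 (0.46), Ppp1r17 (0.43), Rgs8 (0.40) and Aldoc (0.32). The remaining genes of this kind were Cnpy1 (1.44), Ptch1 (0.67), Il16 (0.66), Cdon (0.56), Dao (0.51), Cnr1 (0.43) and Grik2 (0.43), and Gad1 (0.33), whose control difference did not pass the test.

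Among genes lower in control cerebellum, the neuropeptide and interneuron genes had terms of -2.23 for Sst, -2.22 for Vip, -1.82 for Npy, -0.89 for Cck, -0.87 for Crhbp, -0.76 for Pdyn and -0.32 for Dlx1. Genes with the largest fall in control cerebellum had -2.06 for Nrgn, -1.68 for Camkv, -1.51 for Enc1, -1.35 for Gda, -1.22 for Ptk2b, -1.16 for Camk2a, -0.77 for Ddn, -0.60 for Icam5, -0.49 for Pde1a and -0.39 for Crym. Telencephalic factors and genes of hippocampus had -0.57 for Lhx2, -0.56 for Emx1, -0.52 for Bcl11b, -0.52 for Fezf2, -0.45 for Fibcd1 and -0.33 for Mef2c. Receptors and transporters had -1.12 for Grm5, -1.01 for Gabra5, -0.77 for Glra2, -0.65 for Grin2b, -0.63 for Slc17a7, -0.57 for Gabra3, -0.51 for Grm7, -0.46 for the sorting receptor Sorcs3, -0.37 for Chrm1, -0.29 for Grin2a and -0.23 for Gria3. Ion channels had -1.09 for Kcnc2, -0.79 for Kcnh3, -0.66 for Scn3b, -0.55 for Kcnv1, -0.38 for Kcnj4 and -0.36 for Kcnf1. The others were Nptx2 (-1.34), Hpcal4 (-0.91), Egr3 (-0.78), Hpca (-0.73), Ppp2r2b (-0.50), Lynx1 (-0.48), Bean1 (-0.40), Lrrtm1 (-0.34), Prkcb (-0.29) and Plcb1 (-0.25).

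In 12 genes the term ran against the control difference. Itpr1 (-2.93), Nts (-2.34), Ryr2 (-0.44), Kcng4 (-0.34) and Kcnd2 (-0.27) were higher in control cerebellum. Hcrt (2.40), Kl (1.51), Cldn11 (0.75), Lef1 (0.67), Mal (0.63), Cacna1e (0.51) and Gria2 (0.36) were lower in control cerebellum.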

How the results depend on the processing

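Among the 8619 genes called, no gene that an alternative also called changed direction. The number of calls was 7385 with an FPKM of at least 1 in all 8 libraries and 10209 with no filter, and 8016 to 8822 when 1 library was left out. With the replicate number as a block, 8848 genes were called, 8470 of them in both fits. Past a log2 fold change of 1, the 702 genes higher in cerebellum became 1087 with a pseudocount of 0.01, and the 908 lower became 550 with an FPKM of at least 1 in all 8 libraries, which tests fewer genes. Leaving out 1 library gave 660 to 729 higher and 865 to 939 lower. Higher genes were 56.6% of those called, 54.0% with the libraries quantile normalized and 49.9% with each scaled to its median ratio. The interaction called 3594 genes, 4144 with the replicate block, 3521 with a pseudocount of 0.1 and 2924 without double mutant 6 of both regions.

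Of 186 named genes, 176 kept their direction and their side of the threshold under every alternative that tested them. The block changed no call other than those of Pomc and Lynx1, and with it the list counts that moved by 1.5 times or more were those called higher among blood (4, against 2 without it), clock (4, 2), vessel (3, 2), oligodendrocyte (2, 1), immediate early (2, 1) and ribosomal protein genes (10, 6), brain stem and pituitary markers (1 each, 0), and those called lower among choroid plexus (3, 2) and Purkinje cell markers (1, 0) and the genes the study names (2, 3). Other list counts moved by less. Without cerebellum library 2, 3 genes not called with all libraries, Grin1 (-0.18, limma, adjusted p 0.038), Atp2a2 (-0.20, 0.0403) and Gapdh (-0.28, 0.006), were called lower. Gad1 was called without cerebellum library 4 (0.1997, limma, adjusted p 0.0426) and Pomc without cerebellum library 3 (1.77, 0.023), and Lynx1 was lost without cerebellum library 1, 3 or 4 or cortex library 1, 3 or 4 (0.057 to 0.14). Among the lists, 7 DNA repair genes were higher (11 with all libraries) without cerebellum library 3 or cortex library 1, 11 ribosomal protein genes were higher (6) without cerebellum library 2, 2 housekeeping genes were higher (4) without cerebellum library 3 or 4 or any 1 cortex library, and 2 thalamus and midbrain markers were lower (4) without cortex library 2 or 3. Called choroid plexus, vessel and blood markers, at most 3 in each direction with all libraries, became 0 to 4. With an FPKM of at least 1 in all 8 libraries, lower counts fell to 10 cortical excitatory, 6 cortical interneuron and 3 striatum markers, 6 neuropeptides, 10 potassium channels, 7 aminergic and related receptors and 5 immediate early genes. With the regions swapped only within same-numbered libraries (replicate block), an alternative chosen after seeing the data, 0 of the 20 pairs passed, since the smallest p is 0.125. Because FPKM without counts give no depth, the precision of genes below 1 FPKM is unknown, and a value listed at 0 sets no upper limit.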

Other observations

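Some gene groups of neighbouring structures and of glycine signalling were measured beside those above, and their counts are given as values. Of 7 tested glycine receptor and transporter genes 4 were higher and 3 lower in cerebellum. Slc6a9, the glial glycine transporter, was at 9.34, 12.2, 10.3 and 7.95 FPKM in cerebellum and at 4.72, 4.89, 5.13 and 4.88 FPKM in cortex, and Glra2, a receptor subunit, averaged 1.71 ± 0.51 and 3.84 ± 0.22 FPKM (SD, n = 4). Of 7 tested hippocampus markers 5 were lower and 1 higher in cerebellum, with Fibcd1, a marker of hippocampal pyramidal neurons, at 0.202, 0.0982, 0.210 and 0.104 FPKM in cerebellum and at 3.12, 2.88, 2.65 and 2.89 FPKM in cortex.

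Of 5 tested thalamus and midbrain markers 4 were lower in cerebellum, among them Lef1, a transcription factor of Wnt signalling and of the thalamus, at 1.10 ± 0.22 FPKM in cerebellum and 3.19 ± 0.27 FPKM in cortex. Only 2 of 13 brain stem markers were tested, and 1 was lower, while with the replicate number as a block 1 was higher and 1 lower. Their summed level was 2.94 to 8.67 FPKM in cerebellum and 4.43 to 6.10 FPKM in cortex, so the regions overlapped. Members below the filter ran both ways, so the count gives no direction for the list. Of 8 tested meningeal markers 5 were higher in cerebellum and none lower, with Ptgds, the prostaglandin D synthase of the meninges and oligodendrocytes, at 431, 381, 386 and 365 FPKM in cerebellum and at 285, 208, 198 and 239.99 FPKM in cortex. Of 7 tested markers of oligodendrocyte precursors 6 were lower and 1 higher. How far meninges or neighbouring tissue entered each library was not tested.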
